A study of Equus caballus with 28 samples.

Results

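The microRNAs eca-miR-15a, eca-miR-15b, eca-miR-16, eca-miR-195 and eca-miR-497 were followed through the uterus and the conceptus of the mare on day 13 after ovulation. Every known miRNA row that carried one of these names, with any arm suffix, was taken, which gave 5 miRNAs of 690 known ones, none of them with an arm suffix. With the predicted miRNAs the tables held 844 rows. Small RNA was sequenced in 28 libraries from 5 Warmblood mares. Endometrial biopsies and uterine fluid (UF) came from 5 pregnant and 4 cyclic samples each, and 5 embryos and 5 samples of yolk sac (YS) fluid came from the pregnant cycles. All mares were given hCG to time ovulation, pregnant cycles followed insemination with semen of the same stallion, and the same animals served as their own cyclic controls, except mare 5, for which no cyclic sample was analysed here. UF was taken up with a tampon, YS fluid was aspirated from the conceptus, and the embryo samples were conceptus tissue without the capsule, so no group is a pure cell type. RNA of the fluids was extracted with a serum and plasma kit and RNA of the tissues with a tissue kit, so that a fluid and a kit cannot be told apart in any comparison of a fluid with a tissue.

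MicroRNAs are short RNAs that guide the silencing machinery to messenger RNAs, mainly through bases near their 5′ end, the seed. The miR-15 and miR-16 group shares its seed, and its targets include the cyclins and cyclin-dependent kinases that carry cells from G1 into S phase and the survival factor BCL2. Its members are processed from paired hairpins: in the RefSeq annotation of the horse (assembly TB-T2T), MIR15A lies next to MIR16-2 inside a long non-coding RNA gene, MIR15B lies next to MIR16-1 inside SMC4, which codes for a condensin subunit, and MIR195 lies next to MIR497 inside another long non-coding RNA gene. Both MIR16 genes share the single row eca-miR-16, so their output cannot be separated. How reads that fit several of these closely related miRNAs were counted is not given in the sources used here, so the split between miR-15a and miR-15b, and between miR-16 and miR-195, is uncertain to that extent.

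Levels are given in CPM, the count of a miRNA scaled to 1000000 reads counted on known and predicted miRNAs in the same library. The libraries held 280065 to 590593 such reads in pregnant endometrium, 61836 to 371630 in cyclic endometrium, 79173 to 152860 in pregnant UF, 62087 to 226308 in cyclic UF, 28204 to 44768 in embryos and 4352 to 14531 in YS fluid. A level of 3 reads, taken as the floor of detection, was therefore at most 10.7 CPM in pregnant endometrium but 67.0 to 106 CPM in embryos and 206 to 689 CPM in YS fluid. The tissue labels were checked with marker miRNAs. The summed level of the early-embryo list (miR-302, miR-367, miR-371 and miR-372, 8 rows) was 12020 to 65290 CPM in embryos and 34890 to 264100 CPM in YS fluid, and at most 32.2 CPM in any maternal library. In embryo 1 only 17953 of 28204 reads fell on known miRNAs, and the cyclic UF library of mare 3 stood apart from the other 3 in miR-16.

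miR-16 made up most of the family in every library. Over the 28 libraries it held 50225 reads, 88.5% of the reads of the 5 miRNAs, against 3914 for miR-195 (6.9%), 1106 for miR-15b (1.95%), 1062 for miR-15a (1.87%) and 416 for miR-497 (0.733%). The family took 4.55 to 10.4% of all miRNA reads in embryos, 1.63 to 3.38% in YS fluid, 0.961 to 1.2% in pregnant and 1.16 to 1.47% in cyclic endometrium, 0.493 to 0.686% in pregnant UF and 0.275 to 1.18% in cyclic UF. On this scale every embryo lay above every library of the other groups.

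In embryos of mares 1 to 5, miR-16 was at 44640, 95630, 57900, 59440 and 102000 CPM, and it ranked 2 to 6 among all miRNAs of its library. In YS fluid of mares 1 to 5 it was at 31510, 16530, 33060, 16310 and 17340 CPM, on 71 to 432 reads. The embryo range did not meet that of YS fluid, and both lay above all maternal libraries. Of the miRNAs tested in each comparison below, 27.9% lay wholly higher in embryos than in pregnant endometrium, 29.0% higher than in pregnant UF and 7.72% higher than in YS fluid, and in YS fluid 20.2% lay wholly higher than in pregnant endometrium and 24.9% higher than in pregnant UF. In pregnant endometrium of mares 1 to 5 the values were 8017, 10280, 7745, 8887 and 8268 CPM, and in cyclic endometrium of mares 1 to 4 they were 12270, 9576, 9738 and 10270 CPM. In pregnant UF of mares 1 to 5 they were 6383, 6318, 4671, 5109 and 6265 CPM. In cyclic UF of mares 1 to 4 they were 11020, 10910, 2529 and 9369 CPM. By mean the order was embryo (71920 ± 25320, SD, n = 5), YS fluid (22950 ± 8548, n = 5), cyclic endometrium (10460 ± 1240, n = 4), pregnant endometrium (8639 ± 1010, n = 5), cyclic UF (8457 ± 4023, n = 4) and pregnant UF (5749 ± 801, n = 5), and the 4 maternal groups overlapped each neighbour in this order. The place of YS fluid depended on the scale: after TMM normalization over the 28 libraries (trimmed mean of M values, which corrects for a few miRNAs taking a large share of the reads), YS fluid was at 8321 ± 2182 (SD, n = 5) and pregnant endometrium at 14690 ± 1510 (SD, n = 5), while the embryo stayed highest at 41030 ± 7564 (SD, n = 5).

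miR-195 was a miRNA of the endometrial biopsies. In pregnant endometrium of mares 1 to 5 it was at 1500, 1059, 1373, 678 and 1511 CPM, and in cyclic endometrium of mares 1 to 4 at 1504, 1870, 1353 and 1106 CPM. In pregnant UF of mares 1 to 5 it was at 7.42, 184, 26.2, 121 and 227 CPM, and in cyclic UF of mares 1 to 4 at 109, 208, 0 and 41.1 CPM. No UF library reached the lowest endometrial one, but UF libraries differed widely among themselves. In embryos 1 to 5 it had 1, 0, 1, 2 and 2 reads and in YS fluid 0, 1, 0, 0 and 1 reads, all under the floor of 3 reads. The order by mean was cyclic endometrium, pregnant endometrium, pregnant UF, cyclic UF, embryo and YS fluid, and only the step from pregnant endometrium to pregnant UF separated neighbouring groups.

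miR-497, the genomic neighbour of miR-195, also had its highest group means in the endometrium, at a lower level. It was at 186, 82.9, 64.3, 121 and 170 CPM in pregnant endometrium of mares 1 to 5 and at 194, 282, 140 and 111 CPM in cyclic endometrium of mares 1 to 4. In the 19 other libraries it had 0 to 7 reads each, with 8 reads over pregnant UF, 11 over cyclic UF, 3 over embryos and 1 over YS fluid. At these counts the 4 groups could not be put in order. In the endometrium miR-497 held 8.44% of the pooled miR-195 and miR-497 reads in pregnant mares (exact 95% binomial interval 7.39 to 9.6) and 10.9% in cyclic mares (9.46 to 12.5). These intervals cover counting error only, not the spread between mares. Single libraries ranged from 4.48 to 15.2% in pregnant and from 9.14 to 13.1% in cyclic endometrium, so the groups overlapped.

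miR-15a and miR-15b were minor species beside miR-16. miR-15b was at 603, 402, 856, 693 and 1208 CPM in embryos 1 to 5, above the 174 to 254 CPM of pregnant endometrium and the 88.4 to 223 CPM of pregnant UF. After TMM over the 28 libraries, however, embryos were at 439 and pregnant endometrium at 366 normalized CPM by mean, a much smaller gap. Cyclic endometrium held 229 to 372 CPM, cyclic UF 161 to 413 CPM and YS fluid 0 to 689 CPM, on 3, 4, 9, 0 and 3 reads. miR-15a was at 213 to 552 CPM in embryos, 207 to 336 CPM in pregnant and 148 to 369 CPM in cyclic endometrium, 114 to 215 CPM in pregnant UF and 64.4 to 318 CPM in cyclic UF. These 5 groups overlapped each neighbour in the order of their means. In YS fluid miR-15a had 0, 1, 0, 0 and 1 reads in mares 1 to 5.

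**Figure D1:**
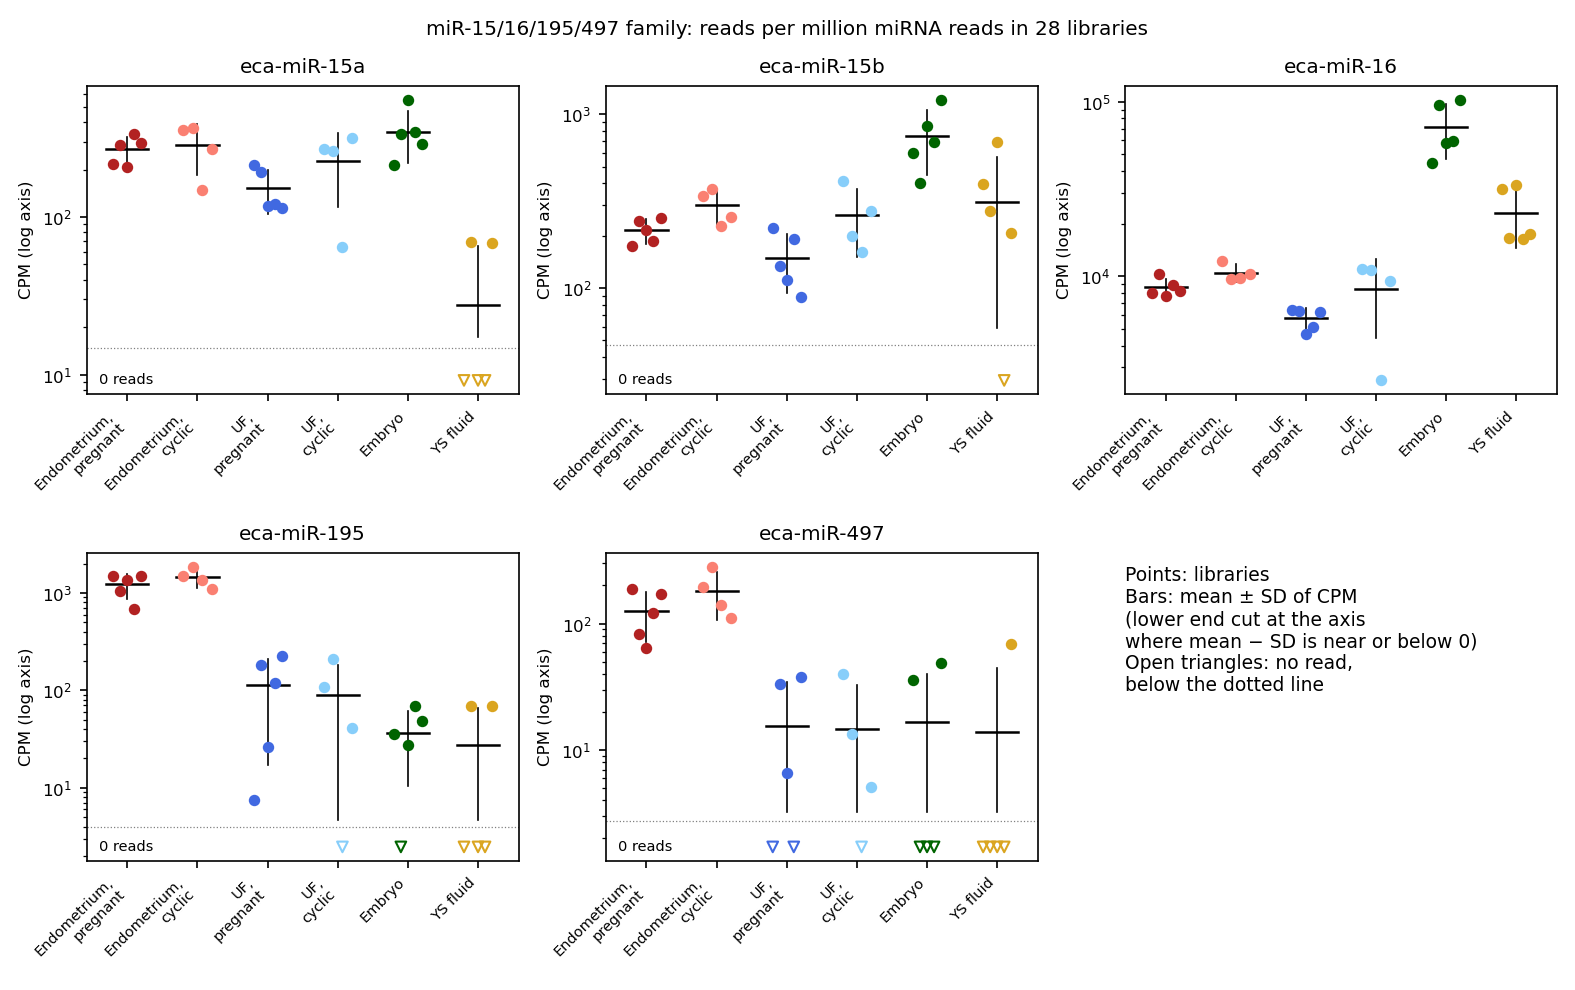
Level of each of the 5 miRNAs in 28 libraries (y axis, CPM on a log axis; x axis, the 6 groups). Points are libraries, bars are mean ± SD, and open triangles are libraries with no read; miR-16 was highest in the 5 embryos (44640 to 102000 CPM), miR-195 was highest in the 9 endometrial libraries, and so was miR-497 apart from the single read in YS fluid of mare 5 (68.8 CPM), which lies above the lowest endometrial value (64.3 CPM).

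The make-up of the family within a library does not depend on how libraries are scaled. The share of miR-195 and miR-497 set endometrium apart from UF and the conceptus, whose libraries overlapped each other. The share of miR-15a and miR-15b beside miR-16, given below, set the conceptus apart from endometrium and UF. miR-195 and miR-497 together took 7.83 to 16.7% of the family reads in pregnant endometrium and 10.1 to 17.3% in cyclic endometrium. They took 0.109 to 3.94% in pregnant UF and 0 to 1.91% in cyclic UF, and every fluid library lay below every endometrial library. In embryos they took 0 to 0.156%, with 9 reads of 13782 over the 5 embryos (0.0653%, exact 95% binomial interval 0.0299 to 0.124). In YS fluid 3 of 1257 reads (0.239%, interval 0.0492 to 0.696) belonged to them. These intervals cover counting error only, since reads without molecular identifiers are not independent molecules.

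The miR-15 partners of miR-16 did not keep pace with it in the conceptus. miR-15a and miR-15b together were 5.25% of the pooled miR-15a, miR-15b and miR-16 reads in pregnant endometrium, 5.17% in cyclic endometrium, 5.11% in pregnant UF and 5.25% in cyclic UF. The libraries of these groups ranged from 3.12 to 8.19%. In embryos the pooled share was 1.44% (interval 1.25 to 1.66; libraries 0.765 to 2.38%) and in YS fluid 1.67% (interval 1.04 to 2.55; libraries 0 to 2.05%), so that no conceptus library reached the lowest maternal one. Within the miR-15 pair, miR-15b was 45.5% of the pooled reads in pregnant endometrium, 52.4% in cyclic endometrium, 49.1% in pregnant UF and 51.3% in cyclic UF. In embryos it was 68.3% (interval 61.4 to 74.7; libraries 54.5 to 80.6%), and in YS fluid 19 of 21 reads were miR-15b (90.5%, interval 69.6 to 98.8). The embryo libraries lay above those of pregnant endometrium (35.6 to 51.2%) but overlapped those of cyclic endometrium (48.6 to 60.7%), pregnant UF (41.0 to 61.5%) and cyclic UF (43.3 to 71.4%).

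**Figure D2:**
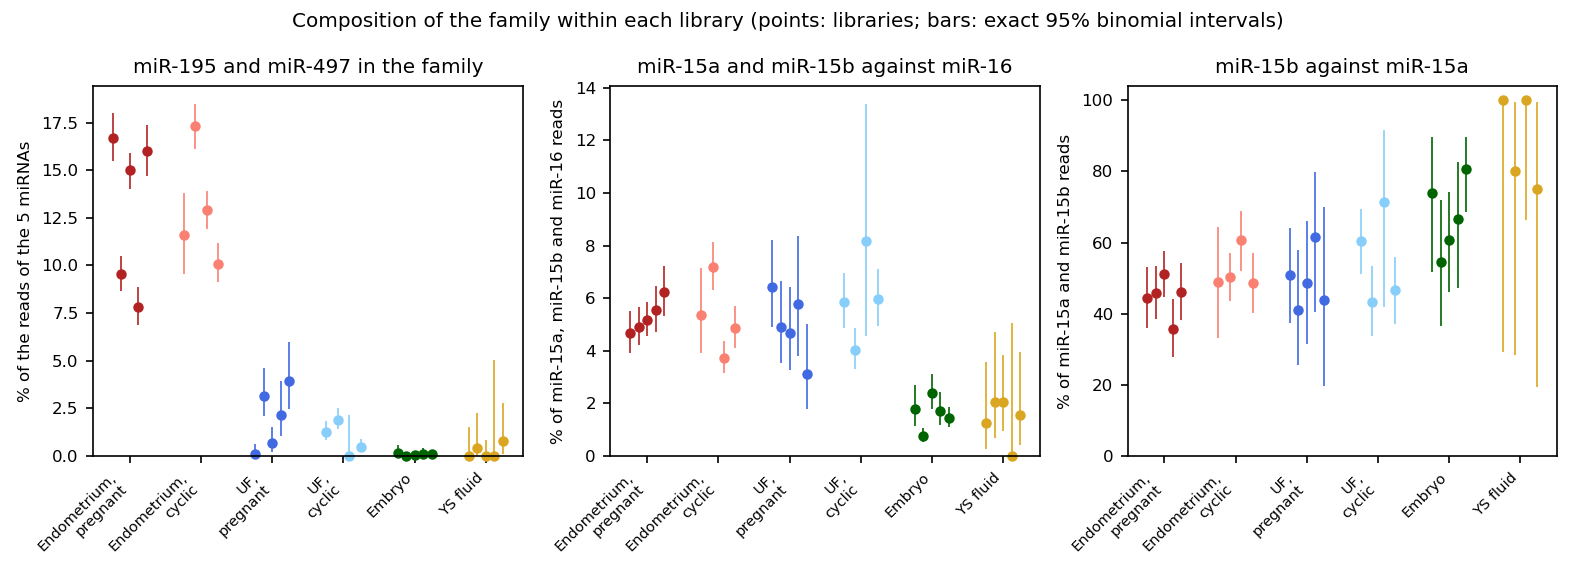
Shares within the family in each library (y axes, percent of the reads named; x axis, the 6 groups; bars are exact 95% binomial intervals). The share of miR-195 and miR-497 was 7.83 to 17.3% in the endometrium and at most 3.94% elsewhere; the share of miR-15a and miR-15b beside miR-16 was lower in embryos and YS fluid than in all maternal libraries. The YS fluid library of mare 4 had no miR-15 read and is missing from the right panel.

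Pregnancy was compared with the cyclic state in the endometrium and in UF with the mare as block. Differences were tested on the counts of all known and predicted miRNAs with edgeR's quasi-likelihood test after TMM, with Benjamini-Hochberg adjustment over all miRNAs tested (the adjusted p is called FDR), and a call needed both an FDR of 0.05 or less and at least a 2-fold change. In the endometrium 0 of the 5 members were called, where 3.37% of the 386 miRNAs tested were. None had an unadjusted p under 0.05 (lowest 0.202, for miR-497), and 0 were called by DESeq2. The log2 fold change was -0.03 (SE 0.21, FDR 0.977) for miR-16, -0.14 (SE 0.27, FDR 0.915) for miR-195, -0.51 (SE 0.40, FDR 0.77) for miR-497, 0.18 (SE 0.35, FDR 0.915) for miR-15a and -0.28 (SE 0.35, FDR 0.826) for miR-15b. By CPM, in 4 of 4 mares the pregnant sample held less miR-15b than the cyclic one, and miR-16, miR-195 and miR-497 were lower in 3 of 4. Some of these differences were small and turned after TMM over the 28 libraries. Then miR-195 was higher in pregnancy in mares 1 (2571 against 2350) and 3 (2689 against 2537). miR-497 was higher in mares 1 (319 against 303) and 4 (192 against 183). How many of all miRNAs ran one way in all mares was not counted, here or in UF.

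In UF 0 of 5 members were called as well, against 4.92% of the 305 miRNAs tested. None had an unadjusted p under 0.05 (lowest 0.3, for miR-15b), and DESeq2 called 0. The log2 fold change of miR-16 was -0.33 (SE 0.35, FDR 0.849). Mares 1, 2 and 4 had less miR-16 in the pregnant sample (11020 against 6383, 10910 against 6318 and 9369 against 5109 CPM, cyclic first), whereas mare 3 had more (2529 against 4671 CPM). Without mare 3 the log2 fold change was -0.68 (SE 0.25, FDR 0.172), still not called. In 4 of 4 mares the pregnant sample held less miR-15b (log2 fold change -0.55, SE 0.53, FDR 0.819). The log2 fold change of miR-15a was -0.29 (SE 0.55, FDR 0.961), that of miR-195 was 0.02 (SE 0.65, FDR 0.999) and that of miR-497, on 19 reads in all, -0.37 (SE 1.12, FDR 0.993). The effect of pregnancy was also compared between UF and endometrium as an interaction, and 0 of 5 members were called against 1.69% of 415 miRNAs; the lowest unadjusted p was 0.302, for miR-15a. DESeq2 was not run for this interaction, and the likelihood ratio test of edgeR called 0.

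**Figure D3:**
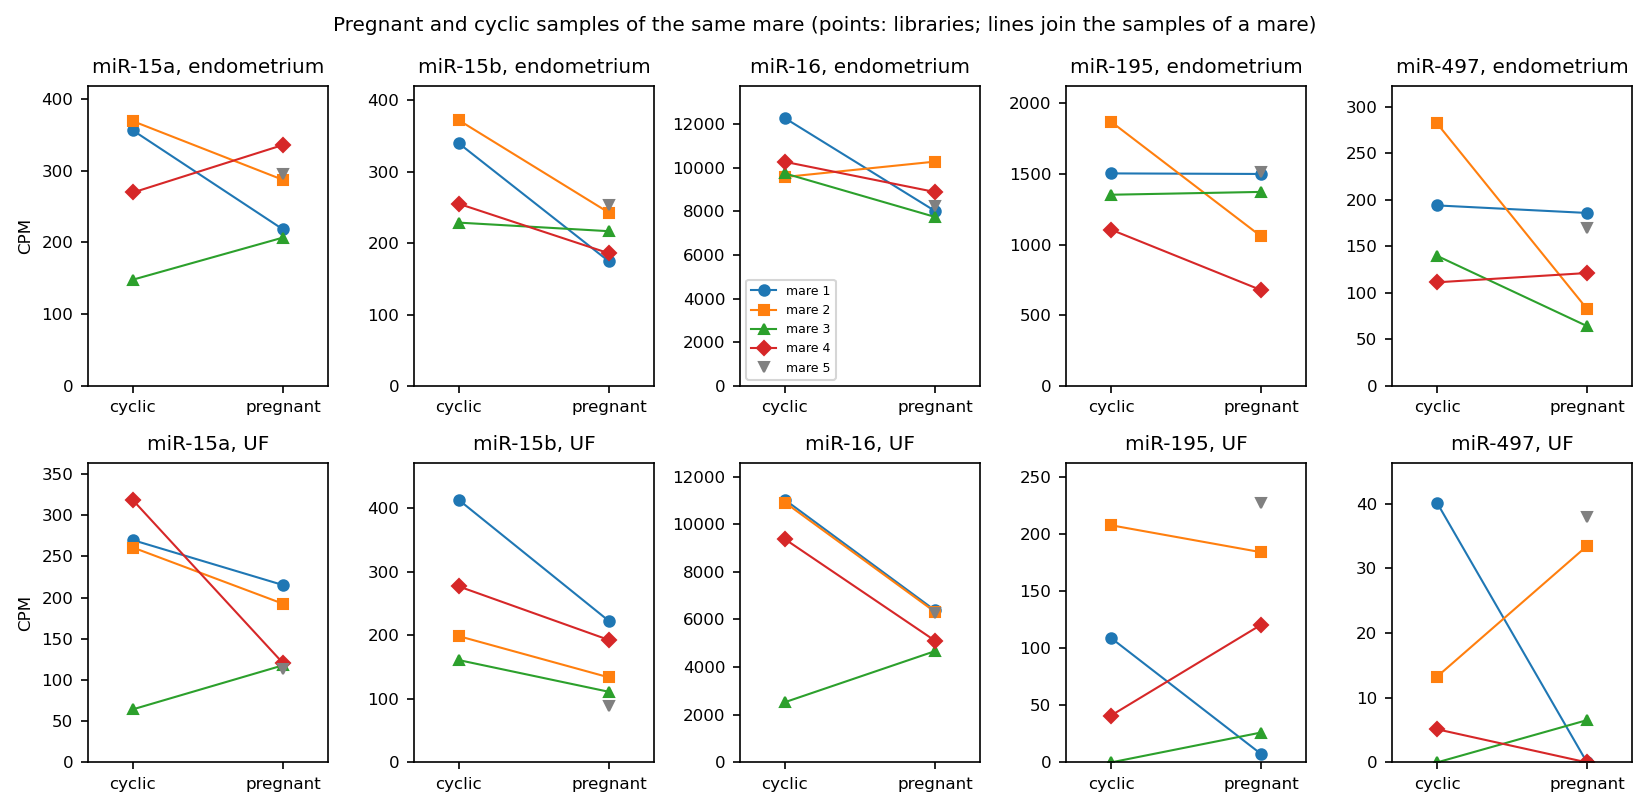
CPM of each miRNA in the cyclic and pregnant sample of the same mare (y axes from 0; upper row endometrium, lower row UF; lines join the samples of a mare, and mare 5 has a pregnant sample only). Lines run both ways for most miRNAs; the line of miR-15b fell towards the pregnant sample in 4 of 4 mares in both compartments, without passing the test, and mare 3 ran against the others for miR-16 in UF.

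The embryo differed from pregnant endometrium in 3 of the 5 members, in opposite directions, in a fit without the mare as block. Of the 359 miRNAs tested, 28.7% were called higher and 42.6% lower in the embryo, so single calls were common in this comparison. With the mare as block the same 3 members were called. The calls over all miRNAs then fell from 103 higher and 153 lower to 71 and 140. miR-16 was higher, with a log2 fold change of 1.70 (SE 0.24, FDR 8.33e-05), and higher in 5 of 5 pairs of mother and embryo. That count of pairs follows from its CPM ranges, which lay apart. miR-195 was lower by a log2 fold change of -6.45 (SE 0.66, FDR 5.85e-06), on 6 reads in embryos against 2310 in the endometrium. In CPM of the pooled libraries that was 37.5-fold less (counting interval 17.2 to 102). miR-497 was also lower (log2 fold change -4.12, SE 0.74, FDR 0.000459), on 3 reads against 213, a pooled ratio of 0.144 (counting interval 0.0296 to 0.428). miR-15a (-0.93, SE 0.37, FDR 0.041) stayed under the fold change limit and miR-15b (0.44, SE 0.37, FDR 0.291) did not pass the test. By CPM, miR-15b and miR-16 lay higher in every embryo than in every pregnant endometrial library, as did 27.9% of the miRNAs tested, and miR-195 and miR-497 lay lower in every embryo, as did 29.0%.

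The scaling of the libraries moved all miRNAs of this comparison together. With TMM the median log2 fold change of all tested miRNAs was -1.02, and with library totals alone it was 0.30, when 140 miRNAs were called higher and 94 lower in place of 103 and 153. Relative to that median, miR-16 stood at 2.73 with TMM and 2.76 with library totals, miR-15b at 1.47 and 1.51, miR-15a at 0.10 and 0.08, miR-497 at -3.10 and -3.15, and miR-195 at -5.43 and -5.42. miR-16, miR-195 and miR-497 were called in the same direction in 15 of 15 alternatives. miR-15a turned to 0.37 (FDR 0.382) with library totals, where miR-15b was called at 1.81 (FDR 0.0017).

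UF differed from the endometrium in the miR-195 and miR-497 pair. In pregnant mares 2 of 5 members were called, both lower in UF, where 20.1% of the 359 miRNAs tested were called lower and 13.6% higher. miR-195 had a log2 fold change of -3.68 (SE 0.60, FDR 0.00032), on 55 reads in UF and 2310 in the endometrium, and miR-497 of -3.18 (SE 0.69, FDR 0.00217), on 8 and 213 reads. Both were lower in UF in 5 of 5 mares. miR-16 (-0.71, SE 0.20, FDR 0.0122) and miR-15a (-0.90, SE 0.33, FDR 0.0412) passed the FDR but not the fold change limit, and miR-15b (-0.62, SE 0.36, FDR 0.187) passed neither. The CPM ranges of miR-16, miR-195 and miR-497 in UF lay below those in the endometrium without overlap, as did those of 18.1% of the miRNAs tested.

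In cyclic mares the same 2 members were called lower in UF, against 18.9% of 328 miRNAs called lower and 11.9% higher. The log2 fold change was -4.19 (SE 0.68, FDR 0.000279) for miR-195 and -3.60 (SE 0.75, FDR 0.00186) for miR-497, and both were lower in UF in 4 of 4 mares. Their CPM ranges in UF also lay wholly below those in the endometrium, as did 18.6% of the ranges of all miRNAs tested. miR-15a (-0.42, SE 0.52, FDR 0.586), miR-15b (-0.29, SE 0.48, FDR 0.691) and miR-16 (-0.49, SE 0.36, FDR 0.353) did not pass. The pregnant and the cyclic comparison share no library, but they share 4 mares. Both calls held in 15 of 15 alternatives in pregnant mares and in 14 of 14 in cyclic mares.

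YS fluid libraries held at most 2 pooled reads of any member but miR-16 and miR-15b. Against pregnant endometrium 4 of 5 members were called lower, where 35.2% of 341 miRNAs were called lower and 17.9% higher. miR-195 had a log2 fold change of -7.06 (SE 0.66, FDR 5.55e-07), miR-15a of -4.82 (SE 0.66, FDR 1.45e-05) and miR-497 of -4.65 (SE 0.90, FDR 0.00041), on 2, 2 and 1 reads in YS fluid. The ratios of pooled CPM to the endometrium were 0.0295 for miR-195 (counting interval 0.00357 to 0.107), 0.144 for miR-15a (0.0174 to 0.524) and 0.16 for miR-497 (0.00403 to 0.901). The floor of 3 reads in YS fluid, 206 to 689 CPM, lay above the 64.3 to 186 CPM of miR-497 in pregnant endometrium. It spanned the 207 to 336 CPM of miR-15a there. Single YS fluid libraries could therefore not resolve these 2 at the endometrial level, and the CPM ranges of miR-497 overlapped. miR-15b was called lower with TMM (log2 fold change -1.39, SE 0.51, FDR 0.0306) but ran the other way with library totals (0.66, FDR 0.311). The call of miR-15b held in 6 of 15 alternatives: it was also lost with DESeq2 (-0.55, FDR 0.322), RLE factors, the stricter filter, known miRNAs only and thinning, and without mare 1 (FDR 0.0807), mare 4 (FDR 0.0596) or mare 5 (FDR 0.149). miR-16 was at -0.63 (SE 0.31, FDR 0.0975) with TMM and turned to 1.41 (FDR 0.000934) with library totals, where the median of all tested miRNAs moved from -0.84 to 1.16 and the calls from 61 higher and 120 lower to 119 and 59. Relative to that median miR-16 was at 0.21 and 0.25.

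Between embryo and YS fluid 2 of 5 members were called, both higher in the embryo, where 22.0% of 259 miRNAs were called higher and 13.1% lower. With the mare as block the same number of members was called, while the calls over all miRNAs fell from 57 higher and 34 lower to 34 and 20. miR-16 had a log2 fold change of 2.28 (SE 0.33, FDR 0.000608) and was higher in 5 of 5 conceptuses. miR-15a had a log2 fold change of 3.64 (SE 0.72, FDR 0.00389), on 63 reads against 2, a pooled ratio of 9.48 (counting interval 2.52 to 80). miR-15b (1.70, SE 0.69, FDR 0.0697) and miR-195 (0.44, SE 0.92, FDR 0.764; -0.06 with library totals) did not pass, and miR-497 was too sparse to be tested. miR-15b was called in 5 of 15 alternatives, DESeq2 (1.57, FDR 0.0104) and the fit without mare 3 (2.28, FDR 0.0467) among them, and was at 0.057 after thinning all libraries to the smallest. With library totals the median of all tested miRNAs moved from 0.28 to -0.32, the calls from 57 higher and 34 lower to 40 and 55, and miR-16 was still called (1.65, FDR 0.00389).

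The conceptus was also compared with pregnant UF, the fluid that surrounds it. In the embryo 1 member was called higher and 1 lower, where 29.7% of 310 miRNAs were called higher and 38.7% lower. miR-16 was higher (log2 fold change 2.13, SE 0.31, FDR 9.98e-05; 5 of 5 pairs) and was called in 15 of 15 alternatives. miR-195 was lower (-3.08, SE 0.89, FDR 0.00963), on 6 reads against 55, and was called in 11 of 14 alternatives; its FDR was 0.141 with library totals, 0.0912 without mare 2 and 0.0725 without mare 5. miR-15a (-0.35, SE 0.50, FDR 0.552), miR-15b (0.73, SE 0.48, FDR 0.194) and miR-497 (-1.20, SE 1.06, FDR 0.326) did not pass. By CPM, miR-15b was nevertheless higher in the embryo in 5 of 5 pairs. Its CPM range lay wholly higher in the embryo, as did that of 29.0% of the miRNAs tested. After TMM over the 28 libraries the ranges overlapped, at 214 to 560 in embryos and 118 to 333 in pregnant UF. miR-15b was called in 7 of 15 alternatives, among them library totals (2.31, FDR 0.00115), DESeq2 (1.44, FDR 0.000708) and the fit without mare 1 (1.40, FDR 0.0147). With library totals the median moved from -0.23 to 1.18, the calls from 92 higher and 120 lower to 146 and 85, miR-15a turned to 1.18 (FDR 0.0235) and miR-497 to 0.18.

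In YS fluid against pregnant UF, 2 members were called lower, where 35.7% of 277 miRNAs were called lower and 23.5% higher. miR-15a had a log2 fold change of -3.59 (SE 0.78, FDR 0.00104), on 2 reads against 89 (pooled ratio 0.237, counting interval 0.0283 to 0.881). miR-195 had a log2 fold change of -3.10 (SE 1.07, FDR 0.0224), on 2 reads against 55, but the counting interval of its pooled ratio, 0.0453 to 1.45, spanned equality and its call held in 8 of 13 alternatives, being lost with library totals (FDR 0.249), DESeq2 (FDR 0.0991) and RLE factors (FDR 0.0695), without mare 3 (FDR 0.0561) and without mare 4 (FDR 0.0696). miR-15b (-0.54, SE 0.61, FDR 0.454) turned to 1.16 with library totals. miR-16 was at 0.23 (SE 0.32, FDR 0.538) with TMM and at 2.00 (FDR 8.64e-05) with library totals, where the median of all tested miRNAs moved from -0.54 to 1.13 and the calls from 65 higher and 99 lower to 114 and 53. miR-497 was too sparse to be tested. The comparisons that involve pregnant endometrium, pregnant UF, embryos or YS fluid reuse the same libraries and are not independent of each other.

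**Figure D4:**
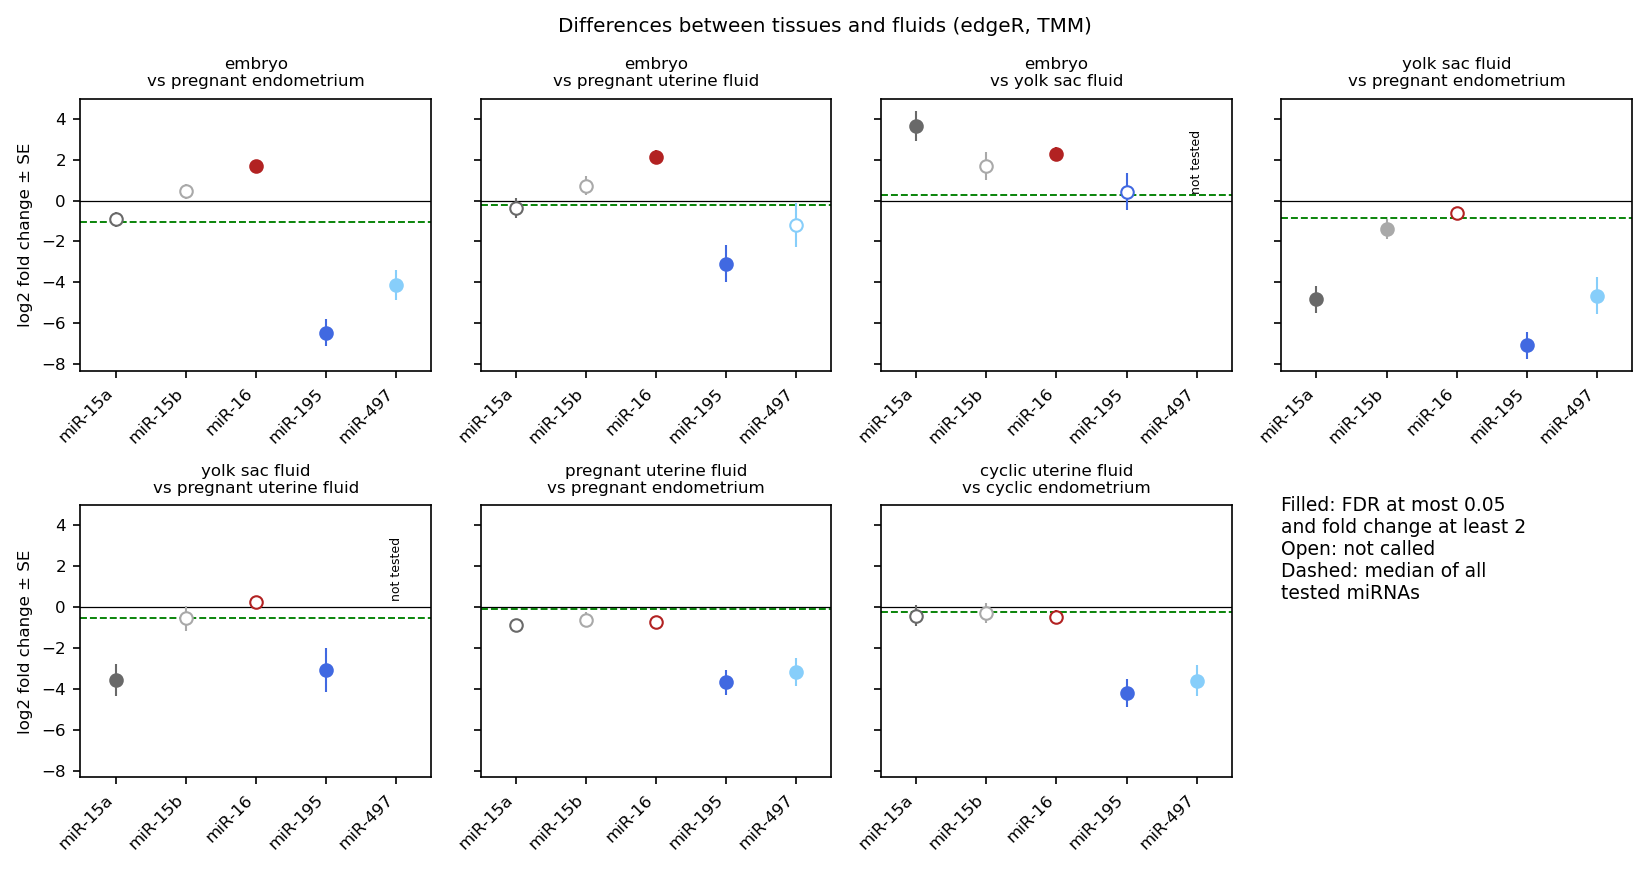
Log2 fold change ± SE of the 5 miRNAs in the 7 comparisons of tissues and fluids (y axis, first named group over second; filled points were called; the dashed line is the median of all tested miRNAs). miR-195 and miR-497 were called lower than in the endometrium in every fluid and in the embryo, in YS fluid on only 2 and 1 reads. miR-16 was higher in the embryo than in the 3 groups it was set against. The open miR-16 point of YS fluid against endometrium turns from -0.63 to 1.41 with library totals.

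Marker miRNAs of smooth muscle, stroma and endothelium were lower outside the endometrium, as miR-195 and miR-497 were. Most leukocyte markers, given below, were not called lower in UF. The summed level of 7 smooth muscle and stroma miRNAs (miR-143, miR-145, miR-1, miR-133a, miR-214 and both arms of miR-199a) was 12120 to 45730 CPM in pregnant endometrium, 15960 to 26310 in cyclic endometrium, 275 to 5545 in pregnant UF, 612 to 2550 in cyclic UF, 290 to 990 in embryos and 553 to 5515 in YS fluid. Of this list 5 of 6 tested miRNAs were called lower in pregnant UF than in pregnant endometrium, where 20.1% of all miRNAs tested were. The median log2 fold change was -3.60, against -0.12 over all tested. In the embryo 5 of 6 were called lower, where 42.6% of all miRNAs tested were. The median was -6.73, against -1.02 over all tested. It was -4.86 with miRNAs without a read set to the bound that 3 reads over the group allow. miR-133a had no read in either UF group, and miR-214 and miR-199a-5p had none in embryos. The 2 arms of endothelial miR-126 were also called lower in pregnant UF and in the embryo, against the same shares of 20.1% and 42.6%. Their medians were -4.56 and -5.16, against -0.12 and -1.02 over all tested. Of the pregnant UF libraries, that of mare 1 had the lowest level of the smooth muscle and stroma list and of miR-195, and that of mare 5 had the highest level of both. In pregnant endometrium the 2 levels did not keep the same order. Mare 5 was highest in both (45730 CPM of the list, 1511 CPM of miR-195). Mare 4 had the lowest miR-195 (678 CPM) at 18630 CPM of the list, above the 17280 CPM of mare 1, which had 1500 CPM of miR-195. The part of these cells in the levels of miR-195 and miR-497 was not tested, and in bulk samples fewer cells of a type and less RNA per cell cannot be told apart.

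miR-16 is abundant in red blood cells, whose markers (miR-451, miR-144 and both arms of miR-486) summed to 2674 to 11280 CPM in pregnant endometrium, 6501 to 13510 in cyclic endometrium, 519 to 3246 in pregnant UF, 1149 to 2859 in cyclic UF, 112 to 314 in embryos and 230 to 1379 in YS fluid. The embryo range was the lowest but met that of YS fluid, and miR-144 had no read in embryos. The part of red blood cells in the level of miR-16 was not tested. Leukocyte markers (miR-223, miR-150, miR-155 and both arms of miR-142) summed to 2816 to 3474 CPM in pregnant and 1956 to 3265 CPM in cyclic endometrium. They summed to 1714 to 2791 CPM in pregnant UF and 1268 to 2223 CPM in cyclic UF. In embryos they summed to 48.3 to 193 CPM, and miR-150 and miR-142-3p had no read. Against the endometrium 1 of 5 was called lower in pregnant UF (20.1% of all tested) and 0 of 5 in cyclic UF (18.9% of all tested). In the embryo 5 of 5 were called lower (42.6% of all tested). The epithelial list (miR-200 family, miR-141, miR-429 and miR-205) was high in all groups, at 93710 to 131800 CPM in embryos and 48700 to 117900 CPM elsewhere. Its rows did not move together. In the embryo against pregnant endometrium 1 of 6 was called higher and 3 lower, where 28.7% and 42.6% of all miRNAs tested were. The median log2 fold change was -1.34, against -1.02 over all tested. With library totals 2 rows were called higher and 1 lower.

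**Figure D5:**
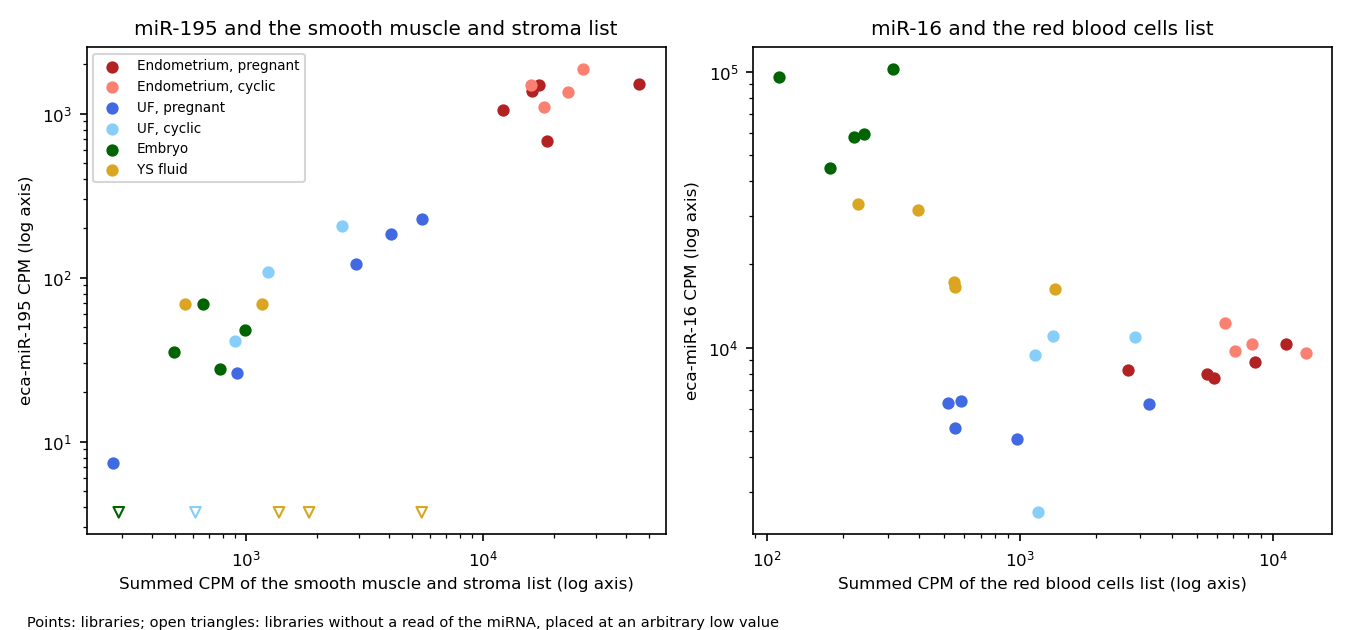
CPM of miR-195 against the summed CPM of the smooth muscle and stroma list (left) and of miR-16 against that of the red blood cell list (right), both axes log; each point is a library, and open triangles have no read of the miRNA. Endometrial libraries lie at the upper right on the left panel, and embryos at the upper left on the right panel (112 to 314 CPM of the red blood cell list).

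Across the 28 libraries the members differed in how alike their patterns were. Pearson's r of log2 CPM after TMM was 0.931 between miR-195 and miR-497, and 0.754 between miR-15a and miR-15b. With miR-195 and miR-497 it was 0.691 and 0.598 for miR-15a, 0.445 and 0.403 for miR-15b, and 0.0808 and 0.118 for miR-16. With miR-16 it was 0.494 for miR-15b and 0.349 for miR-15a. Among 147 other known miRNAs with a mean of at least 100 CPM, the closest to miR-195 were miR-199b-5p (r = 0.958), miR-199b-3p and miR-199a-3p (0.947 each). Those closest to miR-16 were miR-182 (0.834), miR-200b (0.794) and miR-183 (0.784), those closest to miR-15a were miR-21 (0.866), miR-141 (0.861) and miR-200a (0.857), and those closest to miR-15b were miR-324-5p (0.775), miR-532-3p (0.768) and miR-502-3p (0.65). These values describe 28 points that fall into 6 groups. Libraries of a group share a kit, and depth differs between and within groups, so the values carry no test.

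Other miRNAs linked to the cell cycle were described by lists. The cluster of miR-424 and miR-503, encoded elsewhere in the genome, was taken by name together with its miR-450 and miR-542 rows. Whether these rows share the seed of the family was not examined. The cluster had 8 rows and was sparse, at 124 to 262 CPM summed in pregnant endometrium and 35.5 to 313 CPM in embryos. In the embryo against pregnant endometrium 4 of its 6 tested members were called lower with TMM (42.6% of all miRNAs tested). They were miR-424 (log2 fold change -3.00, SE 0.78, FDR 0.00462), miR-450b-5p, miR-450c and miR-542-3p. With library totals, however, 0 were called lower and 1 higher. miR-503 was at 1.40 (SE 0.70, FDR 0.0865) with TMM. Against pregnant UF miR-503 was called higher in the embryo (2.70, SE 0.87, FDR 0.0169), on 16 reads against 2 (29.7% of all tested were called higher). It was also called higher in YS fluid (2.74, SE 0.87, FDR 0.0141), on 6 reads against 2 (23.5% of all tested). miR-424, the only other row of the cluster tested against pregnant UF, was not called in the embryo (FDR 0.386) or in YS fluid (FDR 0.855). In cyclic UF against cyclic endometrium 5 of 5 tested members of the cluster were called lower (18.9% of all tested), and in pregnant UF against pregnant endometrium 3 of 6 (20.1% of all tested).

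The let-7 family, miR-34 and miR-449a, which are known to restrain the cell cycle, had 11 of 11 rows called lower in the embryo than in pregnant endometrium (median log2 fold change -6.05), where 42.6% of all miRNAs tested were called lower and 28.7% higher and the median was -1.02, and their summed level was 5339 to 18570 CPM against 293400 to 457500 CPM. Of 14 rows known to promote it (miR-17 and its clusters, miR-25, miR-93, miR-21, miR-221 and miR-222), 8 were called higher and 3 lower in the embryo (median 1.41). With library totals the restraining list still had 11 called lower (median -4.69), and the promoting list had 10 called higher and 2 lower (median 2.69). miR-16, itself known as a miRNA that restrains the cell cycle, was called in the direction opposite to all 11 rows of the restraining list in this comparison.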

How the data were processed

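Small RNA of day 13 endometrium, UF, embryo and YS fluid was sequenced from 100 ng of RNA per library with 18 PCR cycles. The authors trimmed reads with cutadapt 1.11 (per the labels' processing notes), discarded reads under 17 bases or below a quality of 20, and counted them on miRBase miRNAs and on predicted miRNAs with miRPro against EquCab2.0. The deposited values are whole-number counts per mature miRNA, not normalized; a precursor table that repeats the predicted miRNAs was not used. Totals of 4352 to 590593 counts per library set the precision.

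Counts of known and predicted miRNAs were joined. miRNAs with at least 1 CPM in as many libraries as the smaller group holds were tested with edgeR 4.0.16 (R 4.3.3; TMM, quasi-likelihood test, Benjamini-Hochberg), only on the libraries compared, with the mare as block for pregnant against cyclic samples and without block elsewhere. SE is the log2 fold change divided by the square root of F. Calls needed an FDR of 0.05 or less and at least a 2-fold change. For pregnant against cyclic samples, deviations from the group means correlated by 0.15 (endometrium) and 0.255 (UF) on average in the same mare. In different mares the averages were -0.0381 and -0.0639. In the comparisons without block they were -0.11 to 0.0887 in the same mare and -0.0121 to 0.0278 in different mares. The pairing itself comes from the study's design, in which each mare served in both cycles. Levels and shares carry no test, and binomial intervals are exact at 95%. Counts of mares or pairs that run one way carry no test either. Where CPM ranges lie apart, such counts follow from that and add nothing to it. The counting intervals of pooled ratios are exact binomial intervals of the split of reads between the groups, rescaled by the library totals. The scripts were tested on simulated data. Alternatives were DESeq2 1.42.0, edgeR's likelihood ratio test, RLE factors, library totals, other filters, the block, a fit of all 28 libraries, known miRNAs only, thinned libraries and leaving out each mare.

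All 5 members are named. The miRNAs of the miR-424 and miR-503 cluster were taken by name (miR-424, miR-503, miR-542 and miR-450), since relatives by seed need sequences not used here. The most alike miRNAs are the 3 with the highest r for each member with a mean of at least 100 CPM, which leaves out miR-497. The members, lists and tests were chosen with earlier results of these data known. Samples are separate libraries of mares; p-values measure the spread between them.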

Additional observations from a re-analysis of the deposited data

Results flagged for a closer look

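In 48 sets of 4 or 5 libraries, 2 values stood far from the rest of their group by Dixon's criterion, and chance flags about 1 in 20 groups. In YS fluid, eca-miR-497 was at 68.82 CPM in replicate 5 and at 0 in the other 4 libraries; that level is 1 read. In cyclic endometrium, miR-15b made up 60.7% of the miR-15a and miR-15b reads in replicate 3 and 48.6 to 50.2% in the other 3.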

How the results depend on the processing

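Of 145 counts of members called under an alternative, 135 stayed within 1.5 times the reported count. Of 681 log2 fold changes, 594 kept direction and side of the threshold, 22 gained and 17 lost a call, and 48 changed sign. Of 60 levels, 17 moved by more than 1 SD, all with TMM over the 28 libraries. Adding or removing the mare as replicate block gave the same number of members called in 9 of 9 comparisons (0, 0, 3, 2, 2, 4, 2, 2 and 2). Counts of members called moved in 4 comparisons. YS fluid against pregnant endometrium called 2 after thinning to the smallest library, and embryo against YS fluid called 1. YS fluid against pregnant UF called 1 with DESeq2, RLE, filterByExpr or thinning, and 1 to 2 without a mare (1 without mare 3 or 4). Embryo against pregnant UF called 1 to 3 without a mare (1 without mare 2 or 5). The cause was not tested. Some alternatives gave no value for a sparse member, such as miR-195 with filterByExpr. Depth limits the sparse members most, since 3 reads are 206 to 689 CPM in YS fluid.

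Sign changes with library totals were to -0.049 for miR-15a in pregnancy in endometrium (-0.18 to 0.26 without a mare), -0.11 for miR-195 in pregnancy in UF (-0.77 to 0.90), 0.37 for miR-15a in embryo against endometrium (thinned 0.49), 0.66 for miR-15b and 1.41 for miR-16 in YS fluid against endometrium, 1.18 for miR-15a and 0.18 for miR-497 in embryo against UF (-0.67 to 0.35 and -1.54 to 0.099 without a mare), -0.063 for miR-195 in embryo against YS fluid (-0.15 to 1.24), 1.16 for miR-15b in YS fluid against UF and 0.15 for miR-497 in the interaction (-2.26 to 1.94). With RLE they were to 0.15 for miR-16 in YS fluid against endometrium (DESeq2 0.15, known miRNAs only 0.12, thinned 0.99), 0.33 for miR-15a in embryo against UF (DESeq2 0.32, filterByExpr 0.13, known only 0.13, thinned 0.35), 0.14 for miR-15b in YS fluid against UF (DESeq2 0.17, thinned 0.20) and 0.20 for miR-497 in the interaction (filterByExpr 0.08, known only 0.18). Without the replicate block miR-195 in pregnancy in endometrium was at 0.056. miR-15b turned to 0.028 in pregnant UF against endometrium after thinning, and in cyclic UF against endometrium to 0.033 with filterByExpr and 0.12 after thinning (-0.39 to 0.070 without a mare). Without a mare miR-497 in pregnancy in UF ranged from -2.21 to 1.05, and the interaction from -0.61 to 0.062 for miR-15a, -0.35 to 0.0079 for miR-15b and -0.60 to 1.32 for miR-195.

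Calls over all miRNAs moved by more than 1.5 times as well. In pregnancy in endometrium they fell from 13 to 3 with filterByExpr, 2 with known miRNAs only, 6 after thinning and 0 without the replicate block or with all 28 libraries in 1 fit. In UF they went from 15 to 7 with DESeq2, 0 with filterByExpr or without the block, 2 in the fit of all libraries, 3 with known miRNAs only, and 3 to 26 without a mare. The interaction went from 7 to 0 with known miRNAs only and to between 0 and 20 without a mare. With filterByExpr, which tests fewer miRNAs, they went from 256 to 140 in embryo and from 121 to 75 in pregnant UF against endometrium, from 212 to 101 in embryo and from 164 to 90 in YS fluid against UF, and from 91 to 40 in embryo against YS fluid. After thinning YS fluid called 102 in place of 181 against endometrium and 95 against UF, and embryo against YS fluid called 33. That last comparison called 54 with the replicate block, 140 in the fit of all libraries and 46, 48 and 40 without mares 2, 4 and 5.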
